A study of Mus musculus with 12 samples.

Results

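The repolarising potassium channel subunits were followed as 9 genes, Kcnip2, Kcnd2, Kcnd3, Kcnj2, Kcnj12, Kcnq1, Kcne1, Kcnh2 and Kcna5, chosen by symbol from the 23337 genes of the deposited count tables. RNA-seq had been run on cardiomyocytes (CMs) that were purified by flow cytometry from mouse hearts, with 12 samples in 4 groups of 3 separate hearts. KO mice carried 2 floxed copies of Srf, the gene of serum response factor, and CTRL mice carried 1 floxed and 1 intact copy, on a mixed genetic background. All groups, CTRL included, received a low dose of the viral vector AAV9-cTNT-Cre, whose cardiac troponin T promoter drives Cre recombinase in CMs, and all carried a fluorescent reporter that Cre switches on (Cas9GFP, tdTomato or mTmG). The neonatal groups (P14 CTRL and P14 KO) were injected at postnatal day 1 and collected at day 14, and the adult groups (P90 CTRL and P90 KO) were injected at day 60 and collected at day 90. Only a mosaic of CMs took up the vector, and the reporter-positive cells that were sorted had lost 1 Srf copy in CTRL and both in KO where recombination was complete, so a KO sample is a pool that can still hold cells with intact Srf.

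Repolarisation of the CM action potential is carried by potassium currents that open in sequence. The transient outward current flows through Kv4 pores, encoded by Kcnd2 and Kcnd3, that assemble with the cytosolic accessory subunit KChIP2, encoded by Kcnip2. The delayed rectifier currents flow through the pores encoded by Kcnq1, which pairs with the single-pass accessory subunit encoded by Kcne1, by Kcnh2 and by Kcna5, and the inward rectifiers encoded by Kcnj2 and Kcnj12 finish repolarisation and hold the resting potential. In the adult mouse ventricle the transient outward current is large and the slow delayed rectifier is small, unlike in larger mammals.

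The libraries held 9740389 to 23103460 counted reads. Levels are given as CPM (counts scaled to a common library total) after TMM scaling over all 12 samples, and as CPM per kb of counted exon wherever genes are compared with each other. Srf itself read 64.3, 57.0 and 49.6 CPM in P14 CTRL replicates 1 to 3 and 32.1, 27.8 and 9.68 CPM in P14 KO, and at P90 its range was 57.5 to 80.4 CPM in CTRL against 27.9 to 33.2 CPM in KO, so the groups stood apart at both ages, as their labels say. By edgeR's quasi-likelihood test with Benjamini-Hochberg adjustment, its log2 fold change was -1.30 (SE 0.36, adjusted p = 0.0628) at P14, which missed the threshold of 0.05, and -1.23 (SE 0.13, adjusted p = 0.00347) at P90. The P14 difference passed with DESeq2 (adjusted p = 0.00288), and with edgeR on all 12 samples in 1 fit (0.00999) and without the filter on low counts (0.0129). P14 KO replicate 3 was the lowest library for Srf, Kcnip2 and Kcnd2, and was 1 of 3 libraries with over 100 Y-linked reads, beside P14 CTRL replicate 1 and P90 CTRL replicate 3, where the other libraries held 0 to 2.

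The cells carried CM markers throughout. The summed level of 7 CM marker genes was 86534 to 93985 CPM in P14 CTRL, 63157 to 67045 CPM in P14 KO, and among adults 83961 to 96121 CPM in CTRL and 78898 to 82435 CPM in KO, lower in KO at both ages without overlap. Summed macrophage markers (4.04 to 5.86 against 6.43 to 9.09 CPM) and atrial or conduction cell markers (16.7 to 34.7 against 43.0 to 80.5 CPM) were higher in P14 KO than in P14 CTRL without overlap, whereas the ranges of endothelial, fibroblast and smooth muscle markers overlapped between genotypes at both ages, and none of these markers was at 0 in all 12 samples. Some of these markers are genes that the authors report as changed in neonatal KO CMs. They list Myh6, Tnni3 and Myl2 as lower, and Actn2, Myl7 and Hcn4 as higher. Here edgeR called Hcn4 higher and Myh6 lower in P14 KO, calls that held in 3 of 6 and 0 of 6 fits that left out a library. The part that these markers have in the channel results was not tested. In bulk samples fewer cells of a type, less RNA per cell and altered marker genes within CMs cannot be told apart.

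Because the knocked-out gene encodes a transcription factor, the sequence just upstream of the members' start sites is shown for the transient outward subunits, of which Kcnip2 and Kcnd2 were called lower in P14 KO and Kcnd3 was not called. Each run holds the 250 bases before the RefSeq start on build GRCm38.p6, read 5′ to 3′ on the gene's strand, with GGGCGG in capitals. Kcnip2 lies at chr19:45816064-45816313 on the minus strand, Kcnd2 at chr6:21215096-21215345 and Kcnd3 at chr3:105451640-105451889 on the plus strand, where GENCODE places part of the antisense transcript Kcnd3os in the Kcnd3 window.
Kcnip2: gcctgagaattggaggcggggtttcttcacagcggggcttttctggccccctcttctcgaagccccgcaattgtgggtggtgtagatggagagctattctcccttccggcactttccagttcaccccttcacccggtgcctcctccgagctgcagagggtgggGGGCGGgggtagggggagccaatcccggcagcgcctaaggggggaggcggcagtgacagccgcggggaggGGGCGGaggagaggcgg
Kcnd2: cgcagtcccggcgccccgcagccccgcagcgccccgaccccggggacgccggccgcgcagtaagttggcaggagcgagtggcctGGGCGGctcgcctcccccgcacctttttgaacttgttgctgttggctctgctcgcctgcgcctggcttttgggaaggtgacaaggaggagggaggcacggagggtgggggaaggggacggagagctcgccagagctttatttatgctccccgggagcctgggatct
Kcnd3: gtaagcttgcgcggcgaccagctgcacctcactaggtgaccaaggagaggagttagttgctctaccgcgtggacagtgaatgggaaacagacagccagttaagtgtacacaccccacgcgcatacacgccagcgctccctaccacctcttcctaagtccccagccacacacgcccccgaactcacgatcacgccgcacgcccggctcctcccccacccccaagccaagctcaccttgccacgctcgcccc
GGGCGG, the core of the GC box, was searched on both strands, and 32.7% of 32851 RefSeq promoters held it in a window of this length. It occurred 2 times before Kcnip2, 1 time before Kcnd2, 2 times before Kcnj2 and 3 times before Kcnh2, whose RefSeq start here is an internal one within the gene as counted, and was not in the windows of Kcnd3, Kcnj12 and Kcna5. The CArG box, the element that serum response factor binds, was in the window of 0 of the 7 members with a RefSeq entry, and 1.47% of all promoters held it. With 1 letter off allowed the count was still 0 of 7, against 18.6% of all promoters. CACGTG was found 1 time, before Kcnj2 (6.02% of promoters), and TATAAA before none of the 7 (12.4% of promoters). These matches describe the letters of this window and say nothing of binding. Promoters of Kcnq1 and Kcne1 are not shown.

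Per kb of counted exon, the members spanned a wide range of levels in CTRL cells. At P14 Kcne1 stood first with 135 ± 8.23 CPM per kb (SD, n = 3) and Kcnip2 second with 71.7 ± 7.56, ahead of Kcnh2 (30.8 ± 2.0), Kcnq1 (24.9 ± 4.37) and Kcnj12 (23.3 ± 2.59 CPM per kb). Below them came Kcnj2 (13.6 ± 3.98), Kcnd2 (6.73 ± 1.5), Kcna5 (2.94 ± 0.990) and Kcnd3 (1.55 ± 0.460 CPM per kb). Each neighbour in this order was separated from the next by its sample range except Kcnq1 and Kcnj12, whose ranges overlapped. At P90 Kcnip2 stood first with 121 ± 9.08 CPM per kb and made up 49.8% of the members' summed length-scaled level, against 23.0% at P14. Kcnq1 (30.1 ± 3.68), Kcnh2 (29.0 ± 5.47), Kcnj12 (22.9 ± 3.17) and Kcnj2 (20.3 ± 5.22 CPM per kb) followed with overlapping ranges between neighbours, then Kcnd2 (9.75 ± 0.420) and Kcne1 (6.13 ± 1.78 CPM per kb). Kcnd3 (2.38 ± 0.756) and Kcna5 (1.4 ± 0.202 CPM per kb) closed the order with ranges that overlapped each other. Kcne1 fell from 43.6% of the members' summed level at P14 to 2.53% at P90 in these CTRL cells.
The counted length matters for this order, since Kcnip2 was counted over 813 bases, all of them coding and 23.4% of its GENCODE exon bases, while the other members were counted over 74.0% to 100% of theirs.

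**Figure D1:**
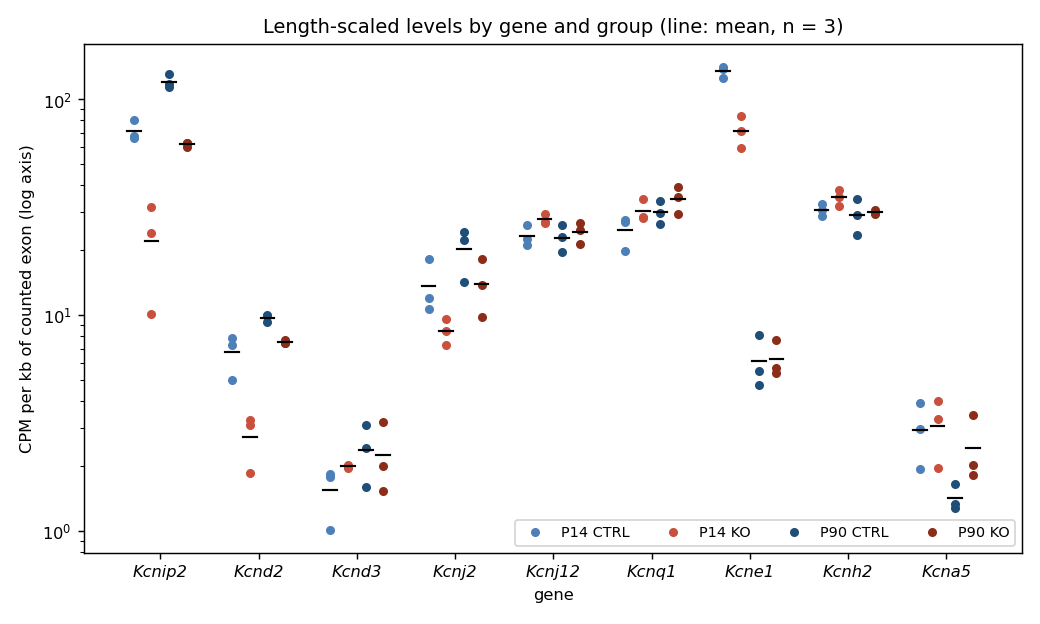
Level of each subunit in CPM per kb of counted exon (log axis) in the 4 groups, with 1 point per sample and a line at the mean of 3. Kcne1 drops from the top of the order at P14 to 6.13 CPM per kb in P90 CTRL, and Kcnip2 sits lower in KO than in CTRL at both ages.

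The question of the neonatal comparison was which subunits differ when Srf is lost during the first 2 weeks after birth. At P14, 3 of the 9 members were lower in KO by edgeR's test (Kcnip2, Kcnd2 and Kcne1) and 0 were higher. Over all 12546 genes tested 8.59% were called in either direction and 4.6% were called lower. For the 0 higher members, 0 reached an unadjusted p under 0.05 with a positive difference, and DESeq2 called none higher either. The CPM of the 2 groups did not overlap for 7 of 9 members, where 32.7% of all genes tested stood apart in this way.

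Kcnip2, the KChIP2 subunit that brings Kv4 pores to the surface, read 65.3, 55.3 and 54.2 CPM in P14 CTRL and 25.9, 19.5 and 8.28 CPM in P14 KO. Every KO sample lay below every CTRL sample, and KO replicate 3 was the lowest of all. The KO mean was 30.7% of the CTRL mean, and the log2 fold change was -1.71 (SE 0.34, adjusted p = 0.0227, edgeR). Kcnd2, the Kv4.2 pore, read 22.9, 33.1 and 35.8 CPM in P14 CTRL and 14.9, 14.1 and 8.43 CPM in P14 KO, again without overlap. Its KO mean was 40.7% of the CTRL mean, with a log2 fold change of -1.30 (SE 0.25, adjusted p = 0.0208, edgeR). Kcnd3, the Kv4.3 pore that contributes to the same current, read 12.8, 13.3 and 7.34 CPM in P14 CTRL and 14.7, 14.4 and 14.2 CPM in P14 KO. Its KO samples were tight (SD 0.244 CPM) and lay just above the CTRL range, and the log2 fold change of 0.36 (SE 0.22, adjusted p = 0.355, edgeR) was not past the threshold. Its exons share 165 bases with 1700095B22Rik, so some of its reads could belong to either gene.

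Kcne1, the accessory subunit of the slow delayed rectifier, was the third member to fall at P14. It read 398, 439 and 446 CPM in P14 CTRL and 225, 265 and 189 CPM in P14 KO. The lowest CTRL sample was well above the highest KO sample, and the log2 fold change was -0.92 (SE 0.14, adjusted p = 0.0116, edgeR). Its partner Kcnq1, the pore of that current, read 83.7, 60.1 and 82.3 CPM in P14 CTRL and 86.2, 85.5 and 105 CPM in P14 KO. The groups did not overlap, but the gap was small and the log2 fold change of 0.29 (SE 0.15, adjusted p = 0.276, edgeR) missed the threshold. Kcnq1 shares 121 exon bases with its antisense transcript Kcnq1ot1, and the counts are not stated to use strand.

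Kcnh2, the ERG pore of the rapid delayed rectifier, read 138, 122 and 129.9 CPM in P14 CTRL and 136, 149.6 and 161 CPM in P14 KO, with overlapping groups and a log2 fold change of 0.19 (SE 0.11, adjusted p = 0.309, edgeR). Kcna5, the Kv1.5 pore of the ultrarapid delayed rectifier, read 11.8, 8.93 and 5.81 CPM in P14 CTRL and 12.0, 9.91 and 5.87 CPM in P14 KO. The samples of the 2 genotypes interleaved, and the log2 fold change was 0.06 (SE 0.32, adjusted p = 0.931, edgeR).

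Of the inward rectifiers, Kcnj2 (Kir2.1, the main pore of the resting potassium conductance) read 58.1, 98.9 and 65.8 CPM in P14 CTRL and 39.8, 52.3 and 46.2 CPM in P14 KO. The KO samples all lay below the CTRL samples. The log2 fold change of -0.69 (SE 0.21) had an adjusted p of 0.0761 by edgeR, short of the threshold. CTRL replicate 2 stood high, and without it the log2 fold change was -0.42 (adjusted p = 0.0990, edgeR). With all libraries Kcnj2 passed with DESeq2 (adjusted p = 0.0183) and with edgeR without the filter on low counts (0.0302). By edgeR it missed with RLE size factors (adjusted p = 0.0768) and with all 12 samples in 1 fit (0.0776). Kcnj12 (Kir2.2, which can form mixed channels with Kir2.1) read 64.5, 55.8 and 52.0 CPM in P14 CTRL and 72.9, 66.8 and 65.9 CPM in P14 KO. The KO samples were the higher ones for this pore, at a log2 fold change of 0.25 (SE 0.11, adjusted p = 0.202, edgeR).

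Each of the 3 neonatal calls was lost when some single library was left out. By edgeR, Kcnip2 reached an adjusted p of 0.0561 without P14 CTRL replicate 1 and 0.0892 without P14 KO replicate 2. Kcnd2 reached 0.0569, 0.0775 and 0.0677 by the same adjusted p without P14 KO replicates 1, 2 and 3 in turn. Kcne1 reached an adjusted p of 0.0542 without P14 KO replicate 1 by edgeR. Without P14 KO replicate 3, the lowest library, the log2 fold changes were -1.35 for Kcnip2, -1.07 for Kcnd2 and -0.79 for Kcne1. Calls over all genes also fell, from 1078 to 202, 111 and 181 without P14 KO replicates 1, 2 and 3 in turn. Without P14 CTRL replicate 1 they fell to 767.

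**Figure D2:**
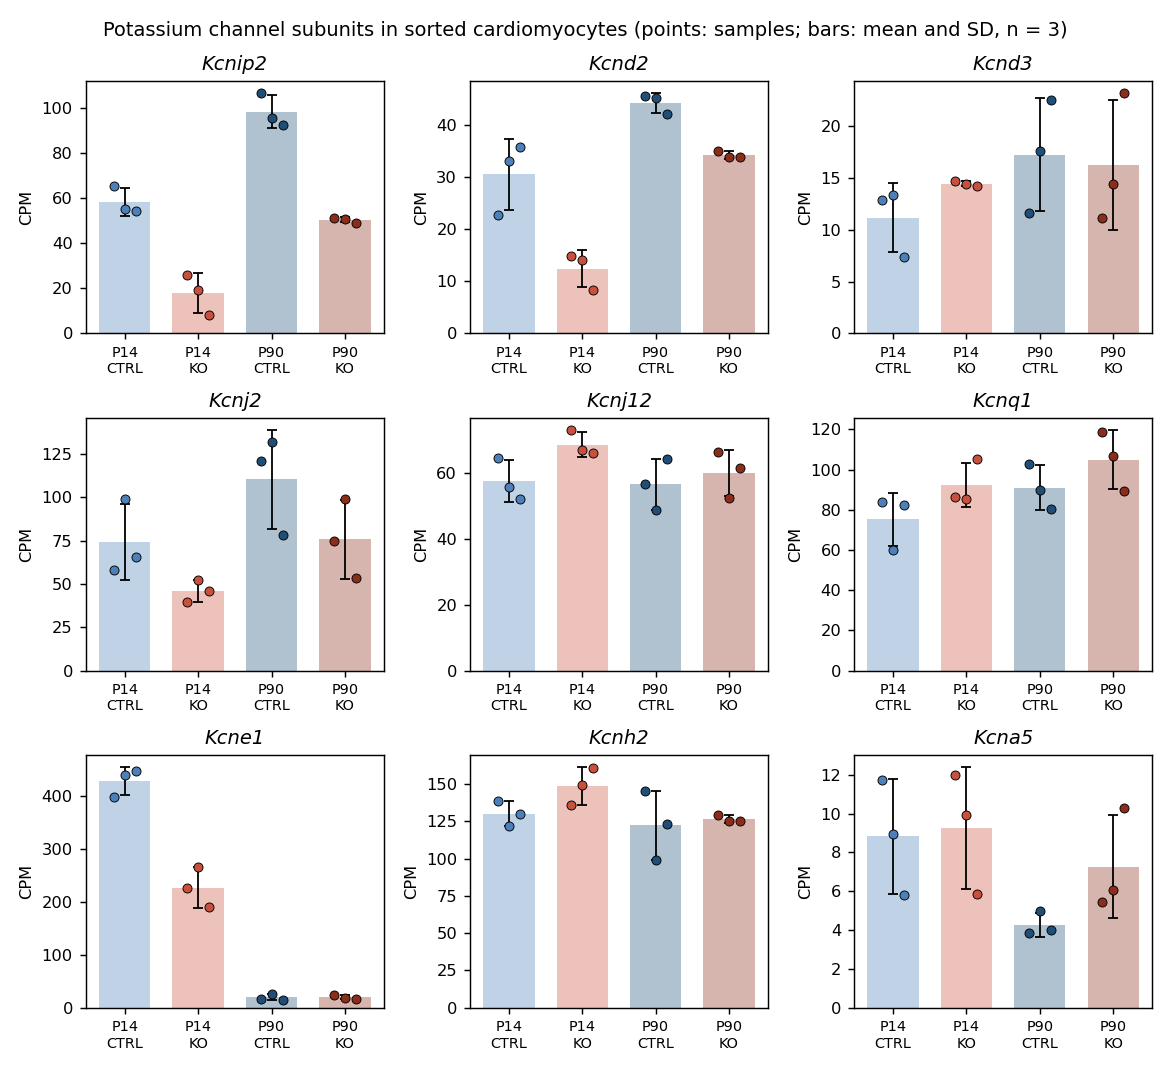
CPM of each subunit by group (axes start at 0), with points for samples and bars for the mean and SD of 3. Kcnip2 separates KO from CTRL at both ages, Kcnd2 and Kcne1 fall in P14 KO, and Kcne1 is near 20 CPM in both P90 groups.

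In the adult comparison, Srf was removed from adult CMs. At P90, 1 of the 9 members was lower in KO, Kcnip2, and 0 were higher by edgeR, where 0.39% of 11808 genes tested were called in either direction and 0.152% were called lower. For higher members, 1 reached an unadjusted p under 0.05 (Kcna5) and DESeq2 called none. CPM did not overlap between the groups for 3 of 9 members (Kcnip2, Kcnd2 and Kcna5), against 21.0% of all genes tested.

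Kcnip2 read 107, 95.7 and 92.7 CPM in P90 CTRL and 51.4, 50.9 and 49.2 CPM in P90 KO. Both groups were tight, and the highest KO sample lay far below the lowest CTRL sample. The KO mean was 51.3% of the CTRL mean, and the log2 fold change was -0.98 (SE 0.09, adjusted p = 0.00225, edgeR). The call held in each fit that left out 1 library, with edgeR adjusted p between 0.00476 and 0.0364, but was lost when all 12 samples shared 1 estimate of the spread (adjusted p = 0.214, edgeR). In that shared fit the log2 fold change of Kcnip2 was -0.98, and 3 of 12841 genes were called at P90. Srf was not among them (adjusted p = 0.180, edgeR).

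Kcnd2 read 45.6, 45.2 and 42.1 CPM in P90 CTRL and 35.1, 33.9 and 33.9 CPM in P90 KO. The groups did not overlap, with the KO mean at 77.4% of the CTRL mean, but the log2 fold change of -0.38 (SE 0.10, adjusted p = 0.108, edgeR) was not past the threshold, and DESeq2 gave an adjusted p of 0.0398. Kcnd3 read 11.6, 17.5 and 22.5 CPM in P90 CTRL and 11.1, 14.4 and 23.2 CPM in P90 KO, a spread within each group that covered any difference between them. Its log2 fold change was -0.10 (SE 0.28, adjusted p = 0.898, edgeR).

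Kcna5 read 3.85, 4.97 and 4.0 CPM in P90 CTRL and 5.46, 6.05 and 10.3 CPM in P90 KO. KO replicate 3 was high and the other two KO samples lay just above CTRL, with a log2 fold change of 0.76 (SE 0.26, adjusted p = 0.204, edgeR) on 47 to 131 reads per library. Kcnj2 read 121, 132 and 78.1 CPM in P90 CTRL and 75.0, 99.2 and 53.6 CPM in P90 KO. Its groups overlapped, and the log2 fold change was -0.55 (SE 0.22, adjusted p = 0.252, edgeR). Without the filter on low counts, edgeR called both, Kcna5 at an adjusted p of 0.0191 and Kcnj2 at 0.000317.

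The remaining 4 members showed adult differences no larger than 0.19 on the log2 scale. Kcne1 read 17.3, 25.7 and 15 CPM in P90 CTRL and 24.3, 18 and 17.0 CPM in P90 KO, at a log2 fold change of 0.03 (SE 0.21, adjusted p = 0.960, edgeR). Kcnq1 in P90 cells spanned 80.4 to 103 CPM without and 89.5 to 119 CPM with loss of Srf, a log2 fold change of 0.19 (SE 0.12). Kcnh2 lay between 99.0 and 145 CPM in CTRL and between 125 and 129 CPM in KO (log2 fold change 0.03, SE 0.12), and Kcnj12 between 48.6 and 64.2 CPM in CTRL and between 52.5 and 66.3 CPM in KO (log2 fold change 0.07, SE 0.13). For all 4 the adult genotypes overlapped.

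**Figure D3:**
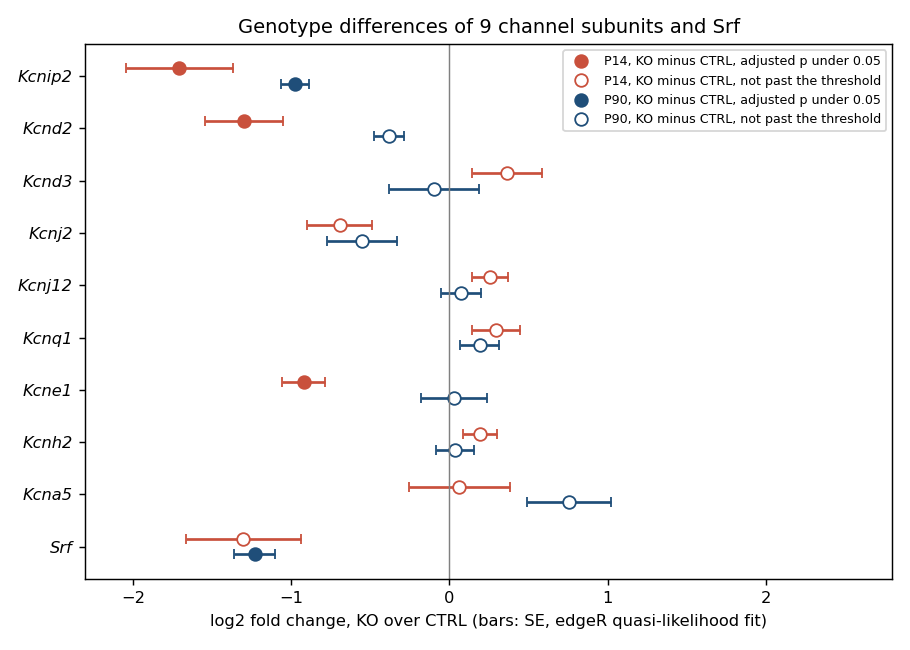
Log2 fold change of KO over CTRL with its SE for the 9 subunits and Srf at P14 and P90, filled where the edgeR adjusted p was under 0.05. Filled points are Kcnip2 (-1.71), Kcnd2 (-1.30) and Kcne1 (-0.92) at P14, and Kcnip2 (-0.98) and Srf (-1.23) at P90.

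Whether the genotype difference itself differed between P14 and P90 was tested by an interaction over all 12 samples. It reuses the samples of both comparisons. Age, deposited table, age at injection and time since injection differ together here and cannot be told apart. By edgeR 0 of the 9 members were called, where 1.78% of 12841 genes tested were, 2 members had an unadjusted p under 0.05, and DESeq2 called 2. These were Kcnd2, whose difference was more negative at P14 than at P90 by -0.91 (SE 0.27, adjusted p = 0.102, edgeR) on the log2 scale, and Kcne1, by -0.94 (SE 0.27, adjusted p = 0.0889, edgeR). Their DESeq2 adjusted p values were 0.0234 and 0.0142. Without P14 CTRL replicate 1, Kcnd2 passed the edgeR test at an adjusted p of 0.0364. For Kcnip2 the interaction was -0.72 (SE 0.37, adjusted p = 0.311, edgeR), so its neonatal fall was not shown to be larger than its adult fall. For Kcnj2, which lay lower in KO on average at both ages, it was -0.13 (SE 0.35, adjusted p = 0.884, edgeR).

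In CTRL cells the members also differed between the ages, and these CTRL samples are the ones used above. The P14 and P90 groups were deposited as separate tables, injected at different ages and collected at different times after injection. Age, table, age at injection and time since injection cannot be told apart. Between P14 and P90 CTRL the summed levels of fibroblast markers (59.4 to 136 against 31.2 to 41.6 CPM), nerve and glia markers (3.59 to 4.72 against 1.57 to 2.64 CPM) and atrial or conduction cell markers (16.7 to 34.7 against 41.0 to 92.7 CPM) also stood apart. Within the atrial or conduction list, edgeR called Sln and Myl7 higher at P90 but Gja5 lower, so its markers did not move as 1 set. The summed endothelial levels overlapped between the ages, yet Cdh5, Pecam1 and Emcn of that list were called lower at P90 by edgeR. The part of these markers in the age differences of the channel genes was not tested. Of the 9 members, 2 were higher at P90 and 2 were lower by edgeR, where 29.3% of 12294 genes tested were called, 14.5% higher and 14.9% lower. Kcne1 went from 398 to 446 CPM at P14 to 15 to 25.7 CPM at P90, 22.1-fold by the ratio of means. Its log2 fold change was -4.46 (SE 0.21, adjusted p = 1.54e-05, edgeR). In KO cells, where P14 levels were already lower, the ratio of the P14 mean to the P90 mean was 11.5.

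Kcnip2 rose from 54.2 to 65.3 CPM at P14 to 92.7 to 107 CPM at P90 (log2 fold change 0.77, SE 0.12, adjusted p = 0.00199, edgeR). Kcnd2 rose from 22.9 to 35.8 CPM to 42.1 to 45.6 CPM (log2 fold change 0.55, SE 0.17, adjusted p = 0.0359, edgeR). Kcna5 fell from 5.81 to 11.8 CPM to 3.85 to 4.97 CPM (log2 fold change -1.04, SE 0.28, adjusted p = 0.0243, edgeR). The last 2 calls were lost by edgeR when single libraries were left out, without P14 CTRL replicate 1 (adjusted p 0.0716 for Kcnd2 and 0.0895 for Kcna5), without P90 CTRL replicate 1 (0.109 and 0.0979) and without P90 CTRL replicate 3 (0.0776 and 0.0919), and for Kcnd2 also without P90 CTRL replicate 2 (0.103).

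The other 5 members were not called between the ages. Kcnj2 was higher at P90 by 0.59 on the log2 scale (SE 0.24, adjusted p = 0.0907, edgeR), and passed by DESeq2 (adjusted p = 0.0480). Kcnd3 was higher by 0.64 (SE 0.29) and Kcnq1 by 0.29 (SE 0.15), while Kcnh2 (-0.07, SE 0.14) and Kcnj12 (-0.01, SE 0.14 on the log2 scale) lay close to 0.
The KO mean of Kcnip2 at P90 (50.5 ± 1.13 CPM, n = 3) was below its CTRL mean at P14 (58.3 ± 6.14 CPM, n = 3). That of Kcnd2 at P90 (34.3 ± 0.697 CPM) fell within the P14 CTRL range of 22.9 to 35.8 CPM.

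Subunits that assemble together were also compared as ratios of CPM per kb within each sample, which no library scaling can change. For 3 against 3 samples the smallest 2-sided p of the exact permutation test is 0.1, so none of these could pass 0.05. The interaction tests, over all 12 samples, could reach 0.005. All 16 ratio tests were adjusted together. Kcnip2 over the sum of Kcnd2 and Kcnd3 was 11.8, 7.45 and 7.49 in P14 CTRL and 6.02, 4.72 and 2.67 in P14 KO. The KO ratios were all lower, with a mean log2 difference of -1.04 (exact permutation p = 0.1, adjusted p = 0.229). In adult cells the same ratio was 11.3, 9.50 and 9.21 in P90 CTRL and 6.82, 6.62 and 5.68 in P90 KO, again all lower (log2 difference -0.65, exact permutation p = 0.1, adjusted p = 0.229). The accessory transcript was lower relative to its pores in KO at both ages in all 6 KO samples.

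Kcnd2 over Kcnd3 was 2.83, 3.95 and 7.76 in P14 CTRL and 1.61, 1.56 and 0.944 in P14 KO, so the pore transcripts came close to equal length-scaled levels in P14 KO (log2 difference -1.73, exact permutation p = 0.1). In adult cells the ratio ran from 2.97 to 6.24 in CTRL and from 2.32 to 5.02 in KO (log2 difference -0.27, exact permutation p = 0.6). The interaction of this ratio between P14 and P90 was -1.46 on the log2 scale (exact permutation p = 0.14). Kcne1 over Kcnq1 was 4.56, 7.01 and 5.20 in P14 CTRL and 2.51, 2.98 and 1.73 in P14 KO (log2 difference -1.23, exact permutation p = 0.1). At P90 it ran from 0.162 to 0.274 in CTRL and from 0.162 to 0.197 in KO (log2 difference -0.15, exact permutation p = 0.8). The interaction of the Kcne1 to Kcnq1 ratio between P14 and P90 was -1.08 on the log2 scale (exact permutation p = 0.08, adjusted p = 0.229). Accessory transcript outnumbered pore transcript per kb in every P14 sample and was the minority in every P90 sample.
Kcnj12 over Kcnj2 was 2.45, 1.25 and 1.75 in P14 CTRL and 4.06, 2.83 and 3.15 in P14 KO, higher in each KO sample (log2 difference 0.92, exact permutation p = 0.1). At P90 it ran from 0.816 to 1.82 in CTRL and from 1.17 to 2.54 in KO, with overlap (log2 difference 0.64, exact permutation p = 0.2). Interactions of the Kcnip2 and Kcnj12 ratios were -0.39 and 0.28 on the log2 scale (exact permutation p = 0.6 and 0.715). After adjustment the smallest p among the 16 ratio tests was 0.229.

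**Figure D4:**
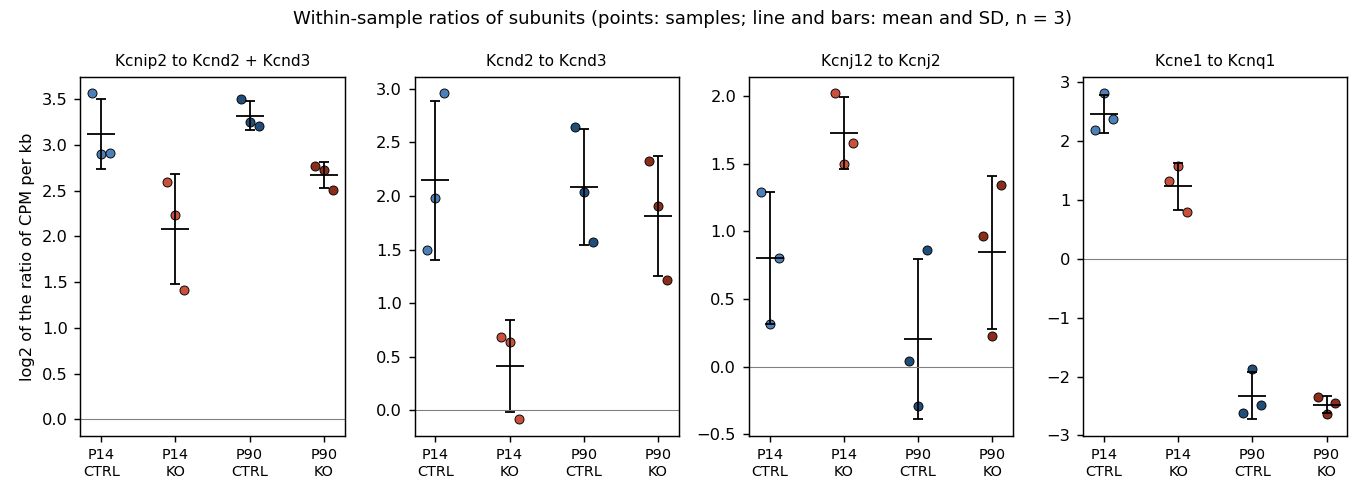
Log2 ratio of CPM per kb within each sample for 4 subunit pairs, with points for samples and the mean and SD of 3. Kcnip2 over its pores lies lower in KO at both ages (geometric means 8.70 and 4.23 at P14, 9.96 and 6.36 at P90), and Kcne1 over Kcnq1 changes sign between P14 and P90.

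Among 88 other potassium channel genes, 27 passed the count filter at P14, of which 1 was higher and 2 were lower in KO by edgeR. Those called were 11.1% of the 27, where 8.59% of all genes tested were called. Both lower genes belong to the ATP-sensitive channel. Abcc8, its SUR1 regulatory subunit, read 179, 147 and 167 CPM in P14 CTRL and 121, 99.0 and 85.3 CPM in P14 KO (log2 fold change -0.69, SE 0.14, adjusted p = 0.0256, edgeR). Kcnj11, its Kir6.2 pore, read 65.9, 61.5 and 61.4 CPM in P14 CTRL and 42.6, 49.6 and 47.6 CPM in P14 KO (log2 fold change -0.43, SE 0.10, adjusted p = 0.0370, edgeR). In P90 cells their ranges overlapped between genotypes. Kcne1l, an X-linked relative of Kcne1, was the higher gene, at 0.0472, 0.249 and 0.763 CPM in P14 CTRL and 1.28, 3.91 and 8.23 CPM in P14 KO, a low level throughout (log2 fold change 3.71, SE 0.88, adjusted p = 0.0379, edgeR). By edgeR Abcc8 kept its call in 3 of 6 fits that left out a library, and Kcnj11 and Kcne1l in 1 of 6 each, with adjusted p up to 0.137. The median log2 fold change of the 27 was -0.37, with 20 below 0, beside a median of 0.0011 over all genes tested.

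At P90, 19 of the 88 passed the filter and 0 were called by edgeR, where 0.39% of all genes tested were called. Of the 19, 4 had an unadjusted p under 0.05 and 1 was called by DESeq2. In the interaction 30 passed and 0 were called, where 1.78% of all genes tested were. Of the 30, 2 had an unadjusted p under 0.05 and DESeq2 called 2. Between the ages in CTRL cells 11 of 23 were called by edgeR, 6 higher and 5 lower at P90. This was 47.8% of the 23, beside 29.3% of all genes tested. The largest rise was that of Kcnv2, a silent subunit that modifies other Kv pores, from 0.294 to 2.64 CPM to 16.9 to 23.6 CPM (log2 fold change 4.16, SE 0.62), and the others that rose included Kcnn1 (1.4, a calcium-activated pore), Kcnj3 (1.26, an acetylcholine-activated inward rectifier) and Kcna7 (1.14, a Kv1 pore). The largest falls were those of Kcna4 (-1.81, the Kv1.4 pore of the slowly recovering transient outward current), Kcnk6 (-1.67, a pore of the tandem-domain family) and Kcnq5 (-1.55 on the log2 scale, a relative of Kcnq1). Those of Kcnk6 and Kcnq5 were lost by edgeR in 4 of 6 and 5 of 6 fits that left out a library.

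**Figure D5:**
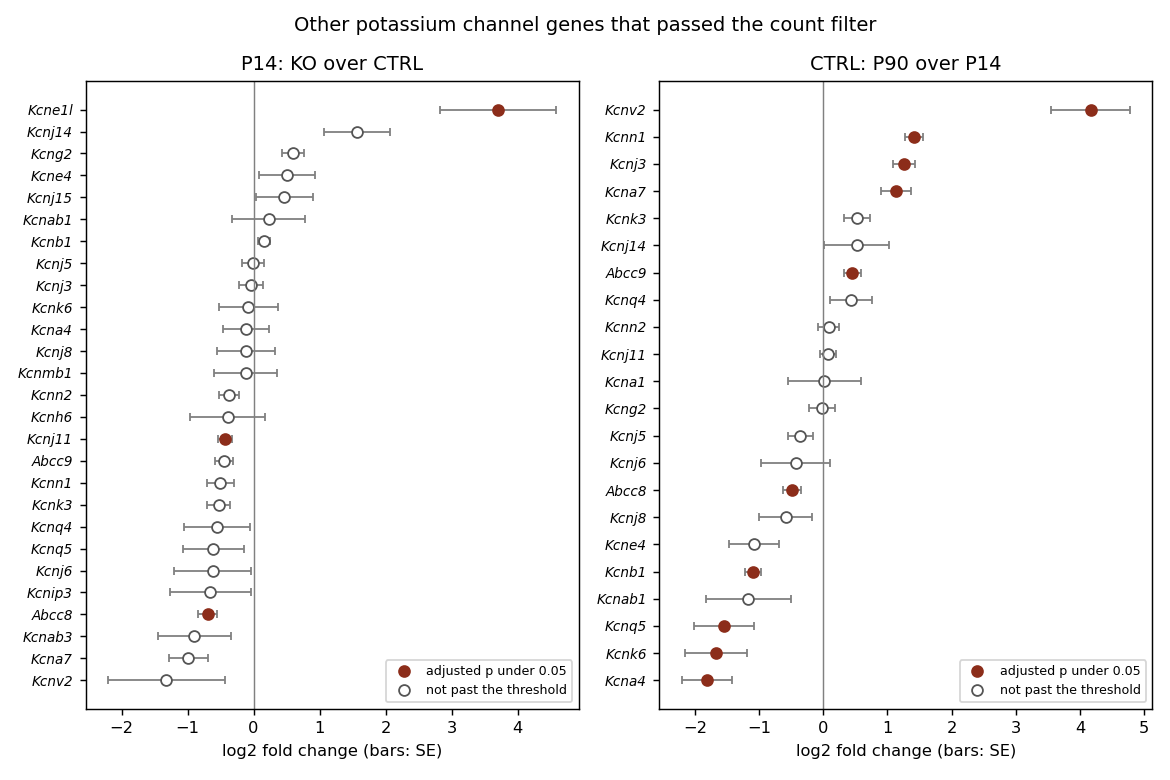
Log2 fold changes with SE of the other potassium channel genes that passed the count filter, for KO over CTRL at P14 (27 genes) and for P90 over P14 in CTRL (1 called gene not shown), filled where the edgeR adjusted p was under 0.05. Abcc8, Kcnj11 and Kcne1l are filled on the left, and on the right Kcnv2 lies highest (4.16) and Kcna4 lowest (-1.81).

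Of 11 regulators and scaffolds of these channels, all of which passed the filter, 1 was called at P14. This was 9.09% of the 11, beside 8.59% of all genes tested. Nedd4l, a ubiquitin ligase known to act on cardiac ion channels, read 57.0, 48.4 and 54.1 CPM in P14 CTRL and 76.5, 75.3 and 79.8 CPM in P14 KO (log2 fold change 0.54, SE 0.10, adjusted p = 0.0209, edgeR). At P90 it read 41.9 to 45.4 CPM in CTRL and 38.9 to 41.6 CPM in KO (log2 fold change -0.13, SE 0.09, adjusted p = 0.532, edgeR). At P90 edgeR called 0 of 11, where 0.39% of all genes tested were called. Of the 11, 1 had an unadjusted p under 0.05 and 1 was called by DESeq2. Between the ages in CTRL cells 1 rose, Dlg1 (the scaffold SAP97, which binds Kv and Kir2 channels; log2 fold change 1.40), and 3 fell, Smyd1 (-1.58, a muscle methyltransferase), Cav3 (-0.77, the muscle caveolin) and Akap9 (-0.37 on the log2 scale, the yotiao scaffold of the Kcnq1 channel). The Akap9 call held in 1 of 6 fits that left out a library. Those called between the ages were 36.4% of the 11, beside 29.3% of all genes tested.

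The genes whose pattern over the 12 samples was closest to each member were found by the root mean square difference of mean-centred log2 CPM, among 9466 genes with a mean of at least 5 CPM. For Kcnip2 they were Slc16a7 (0.31), Cnn2 (0.33) and Adhfe1 (0.37 on the log2 scale), and its closest member was Kcnd2 at 0.40. For Kcnd2 they were Cmtm8 (0.19), 1810049H13Rik (0.21) and Rap1gap2 (0.21), all closer to it than Kcnip2. For Kcne1, whose range between ages is wide, they were Sntb1 (0.50), Lpar3 (0.51) and Eef1a1 (0.51), and its closest member, Kcna5, was at 1.77. Kcnh2 had the closest neighbours of all, Ilvbl, Foxo1 and Wiz at 0.08 to 0.09. The measure is not scaled by a gene's own variation, so genes that vary little, as Kcnh2 did, get small differences without sharing a pattern. For Kcnj12 they were Crkl, Scamp4 and Nadk (0.11 to 0.12), for Kcnq1 Tcn2, Jup and Antxr2 (0.11 to 0.12), for Kcnd3 Dzip3 and 1700025G04Rik (0.22 and 0.24), for Kcnj2 Slc25a46, Lnp and Slc25a40 (0.21 to 0.25) and for Kcna5 Rapgef5, Adam15 and Rhoj (0.25 to 0.27). These are descriptions over samples that share their groups.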

How the data were processed

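RNA was isolated from sorted CMs of 12 hearts (4 groups of 3, grouped by GEO's labels), made into SMART-Seq v4 and Nextera XT libraries and sequenced single-end. The authors deposited raw read counts per gene symbol. The submitters' processing notes name CASAVA 1.8, STAR 2.5.3a, featureCounts of Subread 1.5.2 and build mm10. Annotation, strand and multi-mapping settings are not given in the sources used here. The members and gene lists were chosen with earlier results of these data known.

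Counts were tested with edgeR 4.0.16 (R 4.3.3, limma 3.58.1; TMM, filterByExpr, quasi-likelihood F-test, Benjamini-Hochberg over all genes tested, threshold 0.05) for KO against CTRL at P14 and at P90, for their interaction and for CTRL at P90 against P14, using only the groups compared. All 9 members passed the filter in each. DESeq2 1.42.0, RLE size factors, no filter, a replicate block, 1 fit of all 12 samples and leaving out each library were the alternatives. For ratios these were 0.5 counts added, leaving out each library and same-numbered differences. Log2 CPM used a prior count of 2. At these depths 3 reads correspond to 0.130 to 0.308 CPM, a limit that covers counting error only. Besides the members and Srf, genes named are, per list and comparison, the called ones (at most the 8 with the largest change) and, per member, the 3 nearest in pattern. Some genes that these rules name are not reported here. Scripts were tested on simulated data. Promoters came from RefSeq (GRCm38.p6) and exon overlaps from the deposited models and GENCODE M21 on the same build. No further per-sample columns were present.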

Additional observations from a re-analysis of the deposited data

Results flagged for a closer look

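Nedd4l differed in its genotype difference between P14 and P90, which also differ in deposited table, age at injection and time since injection. Its log2 fold change of KO over CTRL was larger at P14 than at P90 by 0.675 (SE 0.124, adjusted p = 0.0235 over all genes, edgeR interaction over 12 samples). The KO range lay above the CTRL range at P14 and below it at P90. The groups stood apart in this way for 32.7% of all genes tested at P14 and 21.0% at P90. The P90 log2 fold change of -0.13 (SE 0.09, adjusted p = 0.532, edgeR) was not past the threshold. DESeq2 and the other 3 fits of all libraries also called the Nedd4l interaction, with adjusted p from 0.000164 to 0.0284. It stayed past the threshold in 4 of 12 fits that left out a library, with adjusted p up to 0.0822 (without P90 KO replicate 2, edgeR). This gene was the only one of the members, Srf and both gene lists to pass the interaction test by edgeR. It was 1 of 11 regulators and scaffolds, beside 0 of 9 members and 0 of 30 other potassium channel genes tested. Over all 12841 genes tested 1.78% were called.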

How the results depend on the processing

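With 3 hearts a group, the count of calls depended on the tool, the filter and single libraries, and these data could not show small differences in low genes such as Kcna5 and Kcnd3. Where the cause of a change is not stated it was not tested. RLE size factors changed no count of calls by over 1.5 times. Calls over all genes moved with the other fits as well. At P90 they went from 46 to 3 with all 12 samples in 1 fit, 343 with DESeq2 and 701 without the filter. At P14 they went from 1078 to 2088 with all 12 samples in 1 fit and 1832 with DESeq2. In the interaction they went from 228 to 916 with DESeq2 and 474 without the filter. For the members, 0 were called at P90 when all 12 samples were fitted together (against 1), 2 with DESeq2 (Kcnd2 and Kcnip2) and 3 without the filter (Kcna5, Kcnip2 and Kcnj2), and in the interaction 2 with DESeq2 and 2 without the filter (Kcnd2 and Kcne1, against 0). Of the other potassium channel genes, 8 were called at P14 with all 12 samples in 1 fit and 6 with DESeq2 (against 3), 1 at P90 with DESeq2 and 1 without the filter (against 0), and in the interaction 2 with DESeq2 and 1 without the filter (against 0). Of the regulators, 2 were called at P14 with all 12 samples in 1 fit and 2 with DESeq2 (against 1), and 1 at P90 with DESeq2 and 1 without the filter (against 0).

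Same-numbered KO and CTRL samples correlated in their deviations by 0.047, 0.148 and 0.360 (replicates 1 to 3) at P14 and by 0.182, -0.0006 and 0.054 at P90, and not every sample correlated best with its own number, so they share only a number. With a replicate block in the edgeR fit, calls over all genes went from 1078 to 1529 at P14, from 46 to 655 at P90, from 228 to 687 in the interaction and from 3607 to 3139 between the ages. The paired fit called 4 members at P14 (Kcnj2 added, adjusted p = 0.0234, edgeR), 5 between the ages (Kcnj2 added) and 3 at P90 (Kcnd2, Kcnip2 and Kcnj2), Srf at P14 (adjusted p = 0.0220, edgeR), 6 other potassium channel genes at P14, 1 at P90 and 1 in the interaction, and 2 regulators at P14 and 1 at P90.

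Leaving out 1 library at a time, calls over all genes ranged from 111 to 1004 at P14, 6 to 51 at P90, 4 to 377 in the interaction and 2067 to 4768 between the ages. In these fits the count of members called ranged from 1 to 3 at P14, from 0 to 1 in the interaction and from 2 to 5 between the ages, that of other potassium channel genes from 0 to 4 at P14, and that of regulators from 0 to 1 at P14, 0 to 1 at P90, 0 to 1 in the interaction and 3 to 8 between the ages. The lows fell without P14 KO replicate 1 or 2 (members at P14), without any one P14 KO library (regulators at P14), without P14 CTRL replicate 1 or P14 KO replicate 2 or 3 (other channel genes at P14) and without P14 or P90 CTRL replicate 1 (members between the ages). The same omissions turned the sign of log2 fold changes near 0, namely Kcna5 at P14 (-0.16 to 0.32), Kcnd3 (-0.44 to 0.16), Kcnj12 (-0.0145 to 0.175), Kcne1 (-0.14 to 0.28) and Kcnh2 (-0.0900 to 0.153) at P90, Kcnj12 (-0.10 to 0.10) and Kcnh2 (-0.197 to 0.0478) between the ages, and Kcnj2 (-0.32 to 0.14), Kcnq1 (-0.0192 to 0.213) and Srf (-0.37 to 0.29) in the interaction. Log2 ratio differences that turned were Kcnd2 to Kcnd3 at P90 (-0.524 to 0.0321) and between the ages (-0.39 to 0.34), Kcnj12 to Kcnj2 in the interaction (-0.0509 to 0.527) and Kcne1 to Kcnq1 at P90 (-0.300 to 0.0784).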
